A study of Homo sapiens with 9 samples.

Results

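The Wnt/beta-catenin target genes described here are 10 genes taken from the expression files by their Entrez number: AXIN2 (8313), NKD1 (85407), NOTUM (147111), RNF43 (54894), ZNRF3 (84133), LGR5 (8549), TCF7 (6932), LEF1 (51176), SP5 (389058) and GLUL (2752). They are 10 of the 20575 genes in each file, and the rule that picks them uses gene numbers and no measured value, although it was written with earlier results of these data known. RNA was sequenced from Huh7 cells, a human hepatocellular carcinoma (HCC) line, harvested 48 hours after transfection of a control siRNA (siControl), an siRNA against LATS1 (siLATS1) or an siRNA against LATS2 (siLATS2), with 3 samples in each of the 3 groups. LATS1 and LATS2 are the kinases of the Hippo pathway that phosphorylate YAP and TAZ, and the question put to these genes was whether their level differed between the 3 siRNA groups. All 9 samples come from 1 cell line, so they do not speak for other HCC lines. The labels name no agent besides the siRNA, whereas the study's methods also name sorafenib (Srf) treatment of transfected cells, so whether these cells received Srf cannot be told from the sources used here. Of the 10 genes, 7 passed the filter on low values, which asked for at least 1 CPM (a read count scaled to a library of fixed size) in at least 3 of the 9 samples and which 12901 genes passed in all. NKD1, NOTUM and LEF1 did not pass it and are given by their reads.

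In the canonical Wnt pathway, beta-catenin is marked for degradation by a complex built on AXIN and APC proteins unless a Wnt ligand engages a Frizzled receptor and an LRP co-receptor. Stabilised beta-catenin enters the nucleus and drives transcription with DNA-binding factors of the TCF/LEF family. In liver, this signal is known for setting the gene program of hepatocytes next to the central vein, where glutamine synthetase is made, and mutations that stabilise beta-catenin are frequent in HCC. Many direct target genes feed back on the pathway, which is why AXIN2, NKD1, NOTUM, RNF43 and ZNRF3 are read as gauges of its output.

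The files held 23548247 to 32193525 reads per sample, so that 1 read was worth 0.0311 to 0.0425 CPM. Levels below are CPM divided by TMM factors (trimmed mean of M values, which even out composition between libraries), unless stated otherwise. LATS1 itself had 110, 55.2 and 62.9 CPM in siControl replicates 1, 2 and 3, 27.1, 20.1 and 15.6 CPM in siLATS1, and 54.7, 78.6 and 51.2 CPM in siLATS2, and thus was lower in every siLATS1 sample than in any other. The LATS1 difference of siLATS1 against siControl was -1.78 ± 0.31 (SE) on the log2(CPM + 1) scale, which passed the unadjusted threshold described below, with a limma adjusted p of 0.126. LATS2 was not analysed here. Of the 8 hepatocyte-type markers, ALB ranged from 2960 to 6210 CPM and AFP from 4380 to 10000 CPM, and the 8 summed to 13500 to 22900 CPM in siControl, 14000 to 18700 CPM in siLATS1 and 12000 to 16800 CPM in siLATS2. The 8 markers of immune, endothelial and fibroblast cells summed to 8.78 to 18.4, 11.7 to 28.6 and 11.6 to 18.3 CPM, with the T cell gene CD3E at or under 0.0369 CPM.

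The library labelled siControl replicate 1 stood apart from the other 8. Its difference from the mean of siControl replicates 2 and 3 decreased with the GC content of the transcript, with a Pearson correlation of -0.87 across 12522 tested genes, which share the same libraries and are not independent replicates. In the fifth of these genes with the lowest GC content the median difference was 0.88 on the log2(CPM + 1) scale, and in the fifth with the highest it was -1.96. The other 8 libraries leaned less and in either direction. For several genes whose values this library moved, the value is also given without it, or with the trend of each library on GC content removed. Removing the trend is an alternative chosen after seeing the data. With it removed, LATS1 stood at 6.15, 6.07 and 6.09 in siControl on the log2 scale. It then stood at 4.62, 4.37 and 4.38 in siLATS1, and at 5.95, 6.10 and 5.94 in siLATS2.

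**Figure D1:**
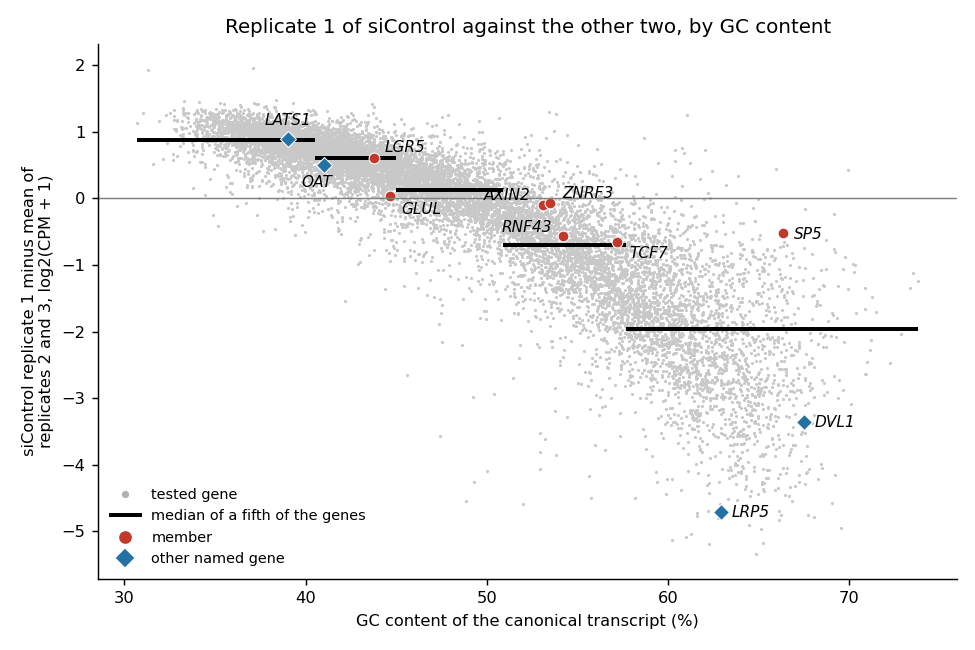
The difference of siControl replicate 1 from the mean of siControl replicates 2 and 3 (vertical axis, log2(CPM + 1)) is drawn against the GC content of each gene's canonical transcript (horizontal axis, %), with a grey point per tested gene, black bars for the medians of 5 equal parts of the genes, red points for the 7 tested members and blue diamonds for LATS1, OAT, LRP5 and DVL1. The black bars run from 0.88 down to -1.96, and SP5, at -0.53, lies well above the bar of its part.

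Nothing among the 7 tested members passed a threshold in any of the 3 comparisons. In siLATS1 against siControl, 0 of 7 passed the threshold of the study's methods (unadjusted p under 0.05 and a log2 fold change of at least 0.58 either way), which 376 genes or 2.91% of all tested genes passed, and 0 of 7 passed it with the adjusted p, which 0.101% of the tested genes did. In siLATS2 against siControl the counts were again 0 of 7, against a background of 0.271% unadjusted and 0% adjusted. In siLATS1 against siLATS2 they were 0 of 7, against 1.86% unadjusted and 0% adjusted. At an unadjusted p under 0.05 with no fold threshold, 746, 110 and 505 genes passed in the 3 comparisons, and 0 of the 7 members in each. The precision was limited, as the median 95% interval of a tested gene reached 0.56 to either side of its log2 fold change. Each group had 3 samples, and the trend of each library on GC content added to the spread. With that trend removed, the median SE of a tested gene in siLATS1 against siControl went from 0.245 to 0.123.

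The 95% intervals of the 7 tested members included 0 in all 3 comparisons. As these are bulk samples, fewer cells that express a gene and less of its RNA per cell cannot be told apart. The median log2 fold change of the 7 was 0.26 in siLATS1 against siControl, where that of all tested genes was 0.02, and 5 of 7 were above 0. It was 0.12 in siLATS2 against siControl, where that of all tested genes was 0.03, and 7 of 7 were above 0. As the medians of all tested genes were above 0, more of them lay above 0 than under it in both comparisons. These comparisons share the siControl samples. Without siControl replicate 1 the medians became 0.08 and -0.01, with 5 of 7 and 3 of 7 above 0. In siLATS1 against siLATS2, which leaves siControl out, the median was -0.01 and 3 of 7 were above 0. The median of all tested genes was -0.035 there, so more of them lay under 0 than above it.

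**Figure D2:**
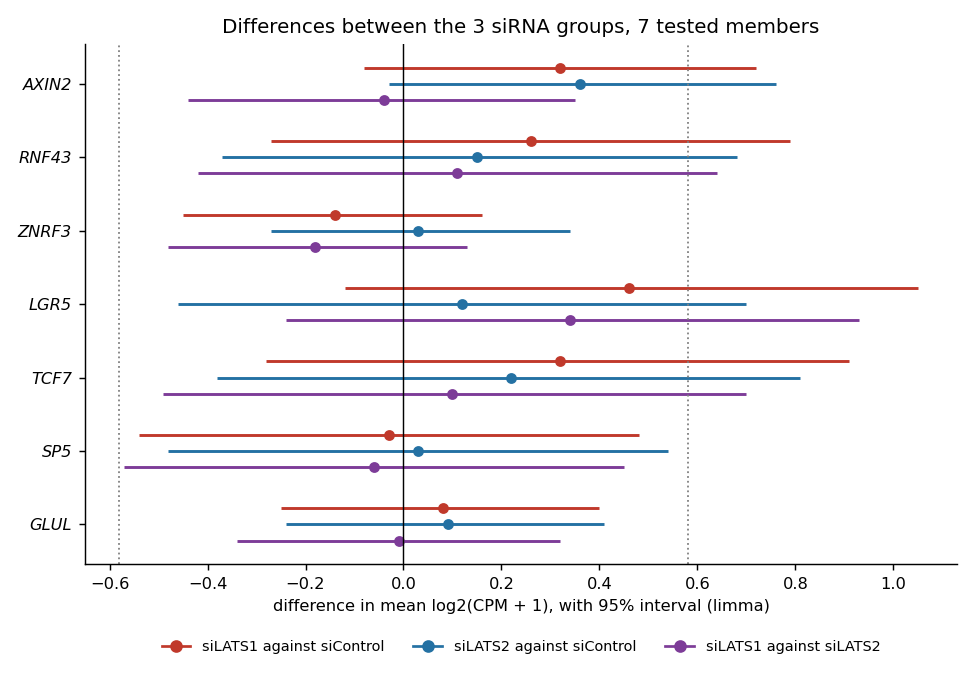
Each of the 7 tested members has 3 points, the differences in mean log2(CPM + 1) between the siRNA groups (horizontal axis), with bars for the 95% intervals from limma and dotted lines at a log2 fold change of 0.58 either way. All the intervals drawn include 0, and the point farthest from 0 is that of LGR5 in siLATS1 against siControl, at 0.46.

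The values of the single samples are drawn for all 10 genes and given in the order of their roles, starting with the genes that feed back on the pathway.

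**Figure D3:**
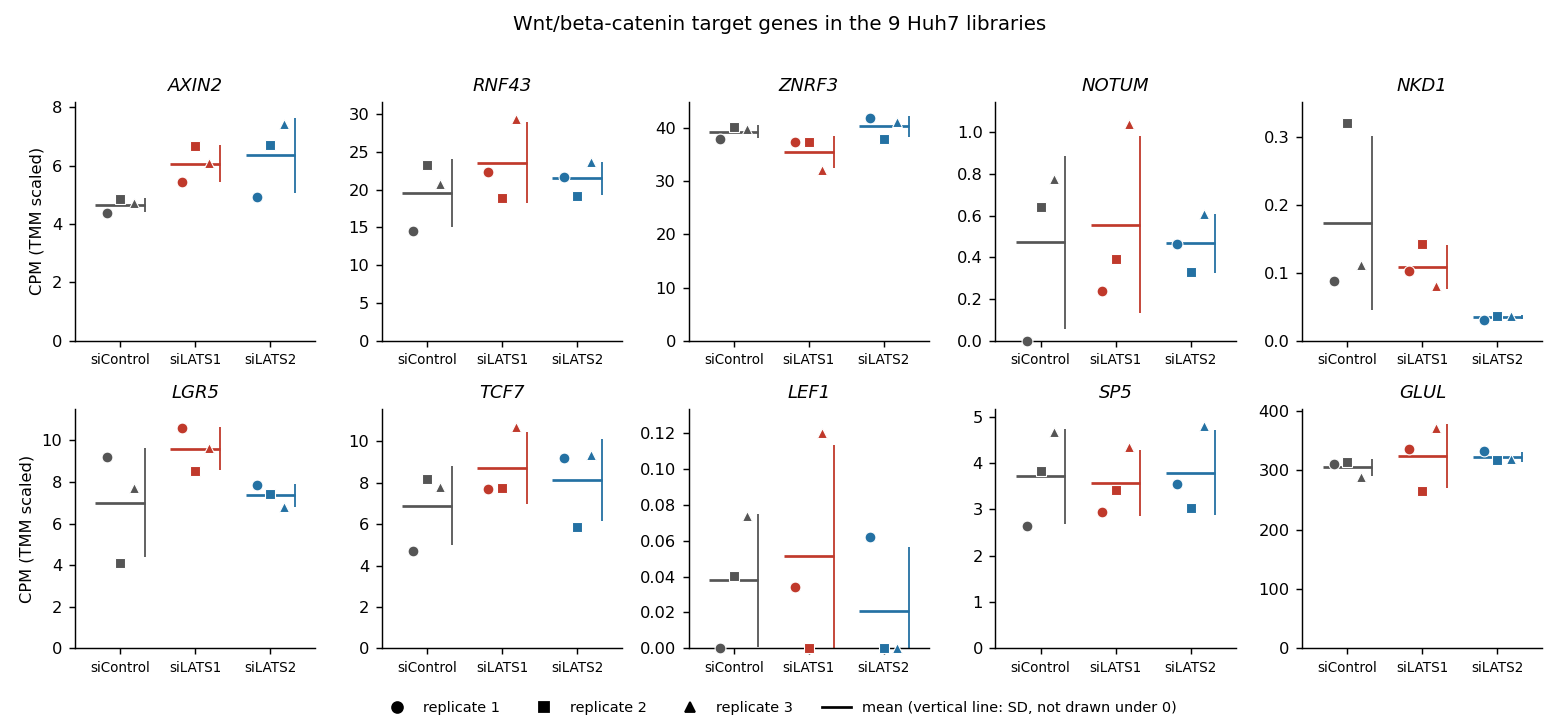
TMM-scaled CPM (vertical axis, starting at 0, with its own range in each panel) of the 10 members in the 3 siRNA groups, with a point per sample shaped by replicate number, a horizontal bar for the group mean and a vertical bar for the SD. The siControl points of AXIN2 lie between 4.39 and 4.86 CPM, under every knockdown point, whereas most other panels show groups that overlap.

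AXIN2, on chr17:63524681-63557766 (GRCh37, minus strand), encodes a scaffold of the destruction complex and is a widely used readout of beta-catenin activity. It had 4.39, 4.86 and 4.72 CPM in siControl, 5.43, 6.68 and 6.10 CPM in siLATS1, and 4.91, 6.71 and 7.42 CPM in siLATS2, from 100 to 207 reads a sample. Every knockdown sample was above every control sample, though siLATS2 replicate 1 only narrowly. The mean was 4.66 ± 0.24 CPM (SD, n = 3) in siControl, 6.07 ± 0.63 CPM in siLATS1 and 6.35 ± 1.29 CPM in siLATS2. On the log2 scale these differences were 0.32 ± 0.17 (SE, limma adjusted p = 0.979) and 0.36 ± 0.17 (limma adjusted p = 0.95), and the exact permutation p of each was 0.1, the smallest that 3 samples against 3 can give. Groups that do not overlap were found for 8.48% of all tested genes in siLATS1 against siControl and for 3.51% in siLATS2 against siControl. AXIN2 did not differ beyond its spread between the knockdowns, with a log2 fold change of -0.04 (95% interval -0.44 to 0.35).

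The low AXIN2 level of siControl was not kept in every reading. Its transcript has 53.1% GC, and genes of similar GC content were mostly lower in siControl replicate 1 than in replicates 2 and 3, while AXIN2 was only 0.10 lower. With the GC trend of each library removed, AXIN2 stood at 2.90 in siControl replicate 1 on the log2 scale, against 2.39 and 2.47 in replicates 2 and 3, 2.68 to 2.92 in siLATS1 and 2.45 to 2.97 in siLATS2, so that the groups overlapped. The log2 fold changes were then 0.21 and 0.20, and with siControl replicate 1 also left out they were 0.38 and 0.36, with unadjusted limma p of 0.0442 and 0.0499 and adjusted p of 0.186 and 0.903. The AXIN2 fold change was above 0 in siLATS1 and in siLATS2 against siControl in all 23 alternatives tried. These use the same samples and are not independent checks. As every knockdown sample lay above every control sample before GC adjustment, most of them could hardly give another sign.

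RNF43 and ZNRF3 are membrane ubiquitin ligases that remove Frizzled receptors from the cell surface. RNF43, on chr17:56431037-56494956 (GRCh37, minus strand), had 14.5, 23.2 and 20.8 CPM in siControl, 22.4, 18.9 and 29.4 CPM in siLATS1, and 21.7, 19.2 and 23.6 CPM in siLATS2. The groups overlapped, and the lowest sample of all was siControl replicate 1. RNF43 differed by 0.26 (95% interval -0.27 to 0.79) in siLATS1 and by 0.15 (95% interval -0.37 to 0.68) in siLATS2 against siControl on the log2 scale, and without siControl replicate 1 these values were 0.06 and -0.05.

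ZNRF3, on chr22:29279560-29453476 (GRCh37, plus strand), was the steadiest of the tested members, with 1.30 times between its highest and its lowest sample. It had 37.8, 40.1 and 39.7 CPM in siControl, 37.2, 37.2 and 32.0 CPM in siLATS1, and 41.7, 37.9 and 41.0 CPM in siLATS2. All 3 siLATS1 samples lay under all samples of the other groups, and siControl and siLATS2 overlapped. The log2 fold change was -0.14 (95% interval -0.45 to 0.16) in siLATS1 against siControl and -0.18 (95% interval -0.48 to 0.13) in siLATS1 against siLATS2, a comparison in which 12.4% of all tested genes had groups that did not overlap. ZNRF3 and AXIN2 were the 2 of 7 members whose groups did not overlap in siLATS1 against siControl, 1 lower and 1 higher, as for 8.48% of all tested genes. With the GC trend of each library removed, the ZNRF3 groups overlapped in all 3 comparisons. They then spanned 5.19 to 5.79 in siControl, 4.88 to 5.37 in siLATS1 and 5.24 to 5.31 in siLATS2 on the log2 scale.

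NOTUM and NKD1 were near the lower end of what this depth can count. NOTUM, on chr17:79910383-79919716 (GRCh37, minus strand), encodes a secreted enzyme that strips the lipid from Wnt ligands. Its reads numbered 0, 16 and 21 in siControl, 7, 11 and 26 in siLATS1 and 15, 9 and 17 in siLATS2, or at most 1.04 CPM. Each group held samples with few reads. By counting error alone, the 0 reads in siControl replicate 1 allow a level of up to 0.126 CPM (3 reads) before TMM scaling. The groups overlapped in all 3 comparisons, with exact permutation p between 0.9 and 1.0.

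NKD1, on chr16:50582307-50683160 (GRCh37, plus strand), encodes an antagonist that binds Dishevelled. Its reads numbered 2, 8 and 3 in siControl, 3, 4 and 2 in siLATS1, and 1, 1 and 1 in siLATS2. With 25 reads over all 9 samples, the lower siLATS2 values rest on 3 reads and 13 reads in siControl, and the exact permutation p of 0.1 is the smallest that the design allows.

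LGR5, on chr12:71833578-71980090 (GRCh37, plus strand), encodes a receptor for R-spondins, which strengthen Wnt signals by clearing RNF43 and ZNRF3, and marks stem cells of several epithelia. It had 9.18, 4.10 and 7.71 CPM in siControl, 10.6, 8.54 and 9.64 CPM in siLATS1, and 7.83, 7.44 and 6.78 CPM in siLATS2. The siLATS1 samples were all above the siLATS2 samples, but siControl replicate 1 lay among the siLATS1 samples and siControl replicate 2 was far under the rest. LGR5 and ZNRF3 were the tested members whose siLATS1 and siLATS2 groups did not overlap, as for 12.4% of all tested genes. LGR5 differed by 0.46 ± 0.26 (SE) in siLATS1 against siControl (limma adjusted p = 0.979) and by 0.34 ± 0.26 in siLATS1 against siLATS2 (limma adjusted p = 1).

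The LGR5 difference from siControl turned on single siControl libraries. Without siControl replicate 2, the lowest sample, the difference of siLATS1 against siControl was 0.12 with an unadjusted limma p of 0.519. Without siControl replicate 1 the difference of siLATS1 against siControl was 0.65 with an unadjusted limma p of 0.0188, which passes the unadjusted threshold, and an adjusted p of 0.308, which does not pass. At 43.8% GC, LGR5 is among the genes that siControl replicate 1 held at a higher level, by 0.61 against the mean of the other siControl samples. With the GC trend removed and all libraries kept, the difference was 0.53 (95% interval 0.10 to 0.96, limma adjusted p = 0.202). In siLATS2 against siControl, LGR5 differed by 0.12 (95% interval -0.46 to 0.70). In siLATS1 against siLATS2 its log2 fold change was 0.26 to 0.41 over the 23 alternatives, which use the same samples, and passed no threshold.

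TCF7, LEF1 and SP5 are transcription factors, of which TCF7 and LEF1 are DNA-binding partners of beta-catenin and SP5 is a zinc finger factor of the Sp family. The start of SP5 is shown because it was the single window among those matched for the members that held CTTTGA, a form of the TCF/LEF core. Other forms of the core were not searched. RefSeq windows, from 250 bases before to 50 after a start, were matched for 5 of the 10 members (GLUL, LEF1, RNF43, SP5 and TCF7), with 8 windows in all. They were searched on both strands for CTTTGA, and for the longer CTTTGAT, which holds the former. Of all 35116 windows of this length, 12.9% held at least 1 CTTTGA and 0.0997% held 3 or more, and 2.62% held CTTTGAT. The SP5 window, chr2:170715087-170715386 (GRCh38.p14, plus strand), held 3 matches, which start at its bases 104, 142 and 168, and 1 of them extends to CTTTGAT. It is printed 5′ to 3′, with the matches of either strand in capitals. A match is a run of letters and not evidence of binding.
SP5: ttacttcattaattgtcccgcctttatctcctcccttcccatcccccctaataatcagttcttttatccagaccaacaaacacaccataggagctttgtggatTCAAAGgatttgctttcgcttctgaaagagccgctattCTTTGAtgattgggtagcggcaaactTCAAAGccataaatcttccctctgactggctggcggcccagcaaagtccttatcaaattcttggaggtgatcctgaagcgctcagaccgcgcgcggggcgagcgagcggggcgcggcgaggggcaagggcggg

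The SP5 groups overlapped in all 3 comparisons. In GRCh37 the gene lies on chr2:171571847-171574588 (plus strand). It had 2.64, 3.82 and 4.68 CPM in siControl, 2.94, 3.43 and 4.34 CPM in siLATS1, and 3.54, 3.03 and 4.81 CPM in siLATS2. Each group held lower and higher samples, with the lowest and the highest of all in siControl and siLATS2. The log2 fold changes of SP5 were -0.03 (95% interval -0.54 to 0.48) in siLATS1 and 0.03 (95% interval -0.48 to 0.54) in siLATS2 against siControl. At 66.3% GC it was the member richest in GC, and removing the GC trend gave 3.96 in siControl replicate 1 on the log2 scale against 1.73 and 1.80 in the other siControl samples, so its GC-adjusted values, with fold changes of -0.42 and -0.46, rest on that library.

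TCF7, on chr5:133450372-133487556 (GRCh37, plus strand), had 4.70, 8.20 and 7.78 CPM in siControl, 7.69, 7.75 and 10.7 CPM in siLATS1, and 9.17, 5.87 and 9.36 CPM in siLATS2. The groups overlapped, and siControl replicate 1 was the lowest sample. Its log2 fold change was 0.32 (95% interval -0.28 to 0.91) in siLATS1 and 0.22 (95% interval -0.38 to 0.81) in siLATS2 against siControl, and without siControl replicate 1 the values were 0.09 and -0.02. LEF1, on chr4:108968701-109090112 (GRCh37, minus strand), was close to undetected, with 9 reads over all 9 samples and 0 to 3 in each. In the 4 samples with 0 LEF1 reads, that count allows a level of up to 0.105 to 0.126 CPM before TMM scaling.

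GLUL, on chr1:182347233-182361341 (GRCh37, minus strand), encodes glutamine synthetase, the enzyme that fixes ammonia in perivenous hepatocytes. It was by far the most abundant member. Its levels were 311, 315 and 289 CPM in siControl, 337, 265 and 371 CPM in siLATS1, and 333, 317 and 320 CPM in siLATS2. The siLATS2 samples all lay just over the siControl samples, while siLATS1 spanned the lowest and the highest sample. GLUL and AXIN2 were the 2 of 7 members whose groups did not overlap in siLATS2 against siControl, as for 3.51% of all tested genes. On the log2 scale GLUL differed by 0.08 (95% interval -0.25 to 0.40) in siLATS1 and 0.09 (95% interval -0.24 to 0.41) in siLATS2, so a change as large as the 0.58 of the threshold lies outside these intervals. With the GC trend of each library removed, siLATS2 and siControl overlapped, at 8.21 to 8.42 and 7.99 to 8.40 on the log2 scale. GLUL has processed pseudogenes and only uniquely mapped reads were counted, so reads that it shares with them are not in its level.

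Ranked by CPM per kilobase of the canonical transcript, the members spread over several orders of magnitude. GLUL led with 42.0 ± 3.97 (SD over 9 samples) CPM per kilobase. ZNRF3 followed with 5.57 ± 0.42 and RNF43 with 4.76 ± 0.90 CPM per kilobase, and the ranges of this pair overlapped. TCF7 at 2.41, SP5 at 1.80, LGR5 at 1.74 and AXIN2 at 1.34 CPM per kilobase formed a run in which each overlapped its neighbours, and the highest TCF7 sample, at 3.26, passed the lowest RNF43 sample, at 3.22. NOTUM at 0.225, LEF1 at 0.0103 and NKD1 at 0.00619 CPM per kilobase came last, with the highest NOTUM sample at 0.470, under the lowest AXIN2 sample at 1.03. Lengths were taken from 1 transcript per gene, so the order of near neighbours depends on that choice.

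The rest of the pathway was described with 9 lists of 106 genes, of which 94 were in the files and 57 were tested. WNT3A, WNT5A, WNT6, WNT7A, WNT8A, FZD10, RSPO1, RSPO3, LGR6, DKK2, SFRP2 and AMER1 were not analysed here. Of the 57, 2 were higher and 1 was lower past the unadjusted threshold in siLATS1 against siControl, 1 was higher in siLATS2 against siControl, and 1 was higher and 2 were lower in siLATS1 against siLATS2, where 2.91%, 0.271% and 1.86% of all tested genes passed. CD44 is 1 of the 2 higher genes in siLATS1 against siControl and the 1 higher gene in siLATS1 against siLATS2. It passed the filter on low values only through the siLATS1 samples, so its place in these counts was partly fixed by the filter. With the adjusted p, 0 of 57 passed in each comparison. The median log2 fold changes of the 57 were 0.05, 0.12 and -0.03, where those of all tested genes were 0.02, 0.03 and -0.03.

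**Figure D4:**
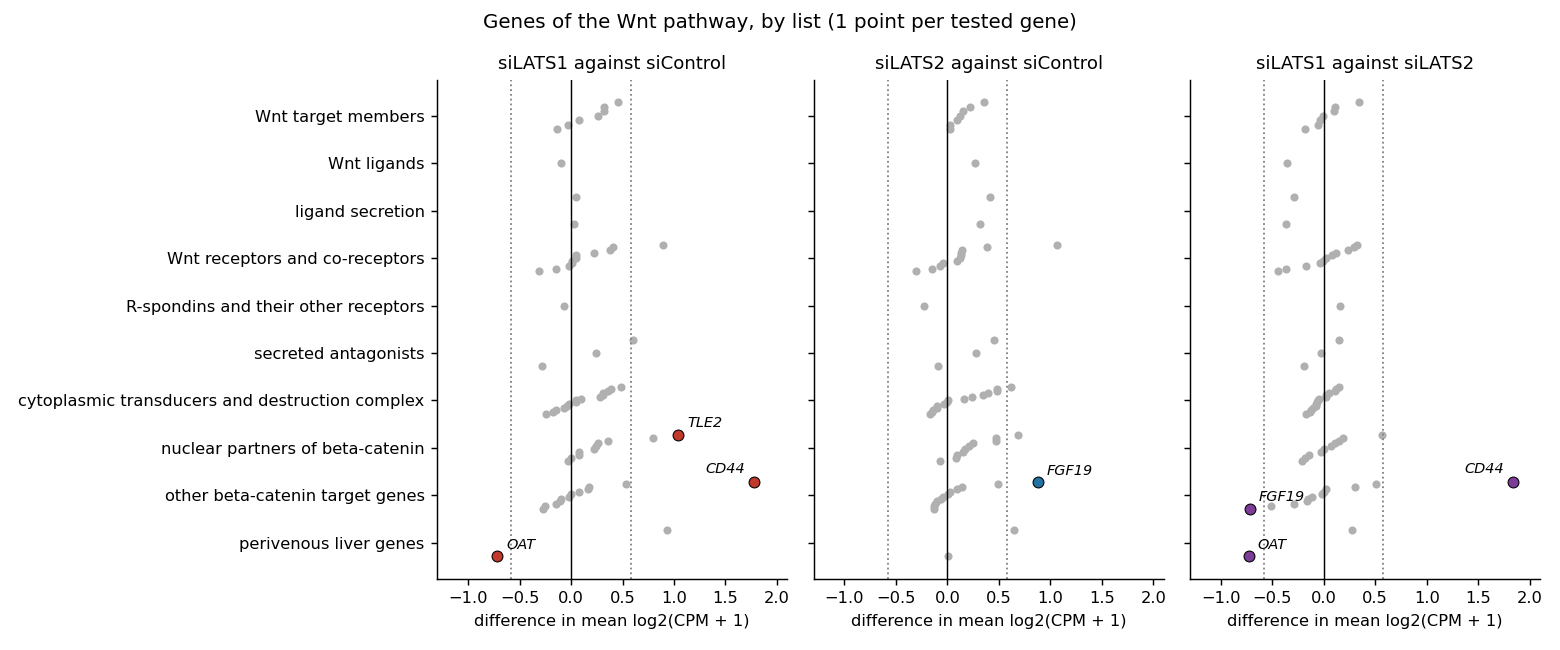
The difference in mean log2(CPM + 1) (horizontal axis) is shown for each tested gene of the members and of the 9 other Wnt lists (rows), with 1 panel per comparison, dotted lines at 0.58 either way, and colour and a name for genes past the unadjusted threshold. TLE2, CD44 and OAT are marked in siLATS1 against siControl, FGF19 in siLATS2 against siControl, and CD44, FGF19 and OAT in siLATS1 against siLATS2, while the row of members has no coloured point.

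At the upstream end, 1 of 14 Wnt ligands in the files was tested. WNT3 had 2.27 ± 0.49 CPM (SD, n = 3) in siControl, 2.04 ± 0.27 in siLATS1 and 2.91 ± 0.37 in siLATS2. The other 13 averaged at most 0.271 CPM over all 9 samples, and at most 0.407 CPM in any single group, a mean of siLATS1. WLS, the carrier that brings Wnt ligands to the cell surface, had 51.3, 45.3 and 46.1 CPM in siControl, 49.2, 43.9 and 52.8 CPM in siLATS1, and 57.6, 59.1 and 61.5 CPM in siLATS2. Every siLATS2 sample was above every other sample, and WLS differed by 0.32 in siLATS2 against siControl (95% interval 0.01 to 0.62, limma adjusted p = 0.95), which is under the fold threshold. PORCN, which attaches the lipid to Wnt ligands, had a log2 fold change of 0.41 (95% interval -0.46 to 1.29) in the same comparison, and of -0.05 without siControl replicate 1, where it had 0.483 CPM.

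Of 11 tested receptors and co-receptors, 0 passed the unadjusted threshold in any comparison. FZD5, a Frizzled receptor, had 138 to 258 CPM over the 9 samples. LRP5, a co-receptor, had 11.2 CPM in siControl replicate 1 and 125 to 342 CPM in the other 8 samples, and its log2 fold change of 0.89 in siLATS1 against siControl became -0.69 without that library. LRP5 has 62.9% GC, and after the GC trend was removed siControl replicate 1 was still 2.47 lower than the mean of replicates 2 and 3. DVL1, a Dishevelled transducer singled out after its values were seen, had 1.10 CPM in siControl replicate 1 and 7.31 to 23.9 CPM in the others, a gap to replicates 2 and 3 of -3.35 on the log2 scale that shrank to -0.48 with the GC trend removed. LGR4, the R-spondin receptor that was tested beside LGR5, had 130 to 310 CPM, with the highest level in siControl replicate 1.

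Secreted antagonists and the cytoplasmic machinery gave 0 of 3 and 0 of 15 genes past the unadjusted threshold. DKK1, which blocks the LRP co-receptors, had 93.6 ± 23.7 CPM (SD, n = 3) in siControl, 75.6 ± 7.95 in siLATS1 and 87.6 ± 18.4 in siLATS2, and DKK3 had 22.2 ± 3.05, 26.5 ± 4.39 and 27.1 ± 3.64. CTNNB1, which encodes beta-catenin itself, had 754 ± 87.7, 776 ± 36.7 and 753 ± 53.5 CPM, with log2 fold changes of 0.05 (95% interval -0.24 to 0.34) in siLATS1 and 0.00 (95% interval -0.29 to 0.29) in siLATS2 against siControl. These are RNA levels and do not speak to the beta-catenin protein. CSNK1D, a casein kinase of the pathway, had 147 ± 69.6, 164 ± 32.0 and 177 ± 31.8 CPM. Its siControl mean was lowered by replicate 1, at 67.2 CPM against 192 and 183 CPM in siControl replicates 2 and 3.

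Among 10 tested nuclear partners of beta-catenin, TLE2, a co-repressor of TCF factors, was the 1 gene past the unadjusted threshold. It had 0.264, 1.25 and 1.18 CPM in siControl, 1.98, 1.79 and 5.50 CPM in siLATS1, and 1.71, 0.620 and 2.73 CPM in siLATS2. The siLATS1 samples were all above siControl, with replicate 3 far above the rest. TLE2 rose by 1.04 ± 0.42 (SE) in siLATS1 against siControl (limma unadjusted p = 0.0377, adjusted p = 0.791), and without siControl replicate 1 the difference was 0.77 with an unadjusted p of 0.0982, and with the GC trend removed it was 0.68 with an unadjusted p of 0.131. TLE1 and CHD8, the most abundant of the list, had log2 fold changes of 0.24 and 0.08 in the same comparison, or 0.06 and 0.03 without siControl replicate 1.

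Of 12 tested genes on the list of other beta-catenin targets, CD44 and FGF19 passed the unadjusted threshold. CD44, a receptor for hyaluronan, had 0.0439, 0.603 and 0.295 CPM in siControl, 1.85, 12.3 and 1.33 CPM in siLATS1, and 0.124, 0.401 and 0.215 CPM in siLATS2. All siLATS1 samples were above all others, but replicate 2 was several times higher than its group. CD44 passed the filter on low values only through the siLATS1 samples, where it is high, so a difference from the other groups was partly fixed by the filter. The CD44 difference in siLATS1 against siControl is therefore given as a description, 1.78 ± 0.58 (SE), with a limma adjusted p of 0.513 in the fit with no filter, and without siLATS1 replicate 2 the gene did not pass the filter. FGF19, a hormone that represses bile acid synthesis, had 8.92, 14.1 and 14.1 CPM in siControl, 14.8, 13.9 and 12.5 CPM in siLATS1, and 25.1, 18.3 and 26.9 CPM in siLATS2. Every siLATS2 sample was above every other sample. FGF19 rose by 0.88 ± 0.23 in siLATS2 against siControl (limma unadjusted p = 0.00439, adjusted p = 0.95), and by 0.66 without siControl replicate 1, its lowest sample (unadjusted p = 0.00663).

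CCND1, which encodes cyclin D1 and was the most abundant of that list, had 426, 381 and 451 CPM in siControl, 385, 351 and 320 CPM in siLATS1, and 435, 414 and 435 CPM in siLATS2. The siLATS1 samples lay under all siLATS2 samples and overlapped siControl, and the log2 fold change was -0.29 (95% interval -0.56 to -0.01) in siLATS1 against siLATS2, under the fold threshold. PROX1, a liver transcription factor, had log2 fold changes of 0.17 and -0.13 in siLATS1 and in siLATS2 against siControl, or 0.37 and 0.06 without siControl replicate 1.

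**Figure D5:**
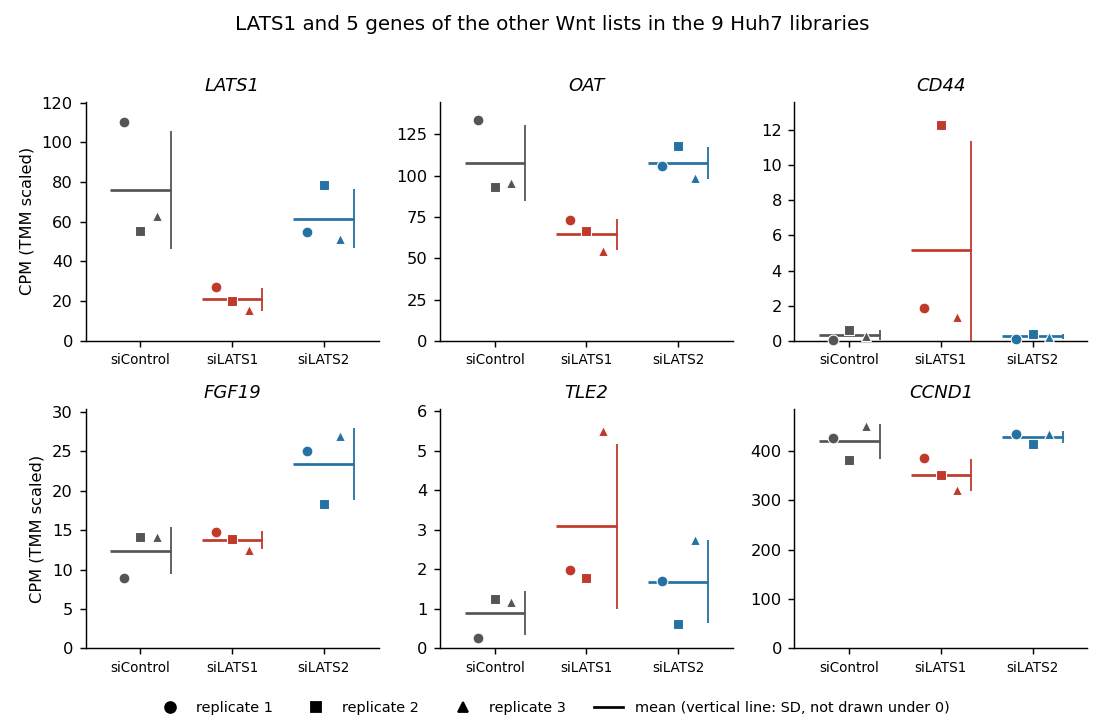
TMM-scaled CPM (vertical axis, starting at 0) of LATS1, OAT, CD44, FGF19, TLE2 and CCND1 in the 3 siRNA groups, with a point per sample shaped by replicate number, a horizontal bar for the mean and a vertical bar for the SD, not drawn under 0. OAT lies between 54.3 and 72.9 CPM in siLATS1 and between 93.2 and 134 CPM in the other samples, and 1 siLATS1 sample of CD44, at 12.3 CPM, stands far above the rest.

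Of the 8 perivenous liver genes, 6 were under the filter, at up to 0.459 CPM on average. The other two were OAT and CYP27A1. OAT, which encodes the mitochondrial enzyme ornithine aminotransferase, had 134, 93.2 and 95.6 CPM in siControl, 72.9, 66.6 and 54.3 CPM in siLATS1, and 106, 118 and 98.6 CPM in siLATS2. All siLATS1 samples were under all others. OAT fell by 0.72 in siLATS1 against siControl, with adjusted p of 0.366 in limma and 0.0142 in DESeq2, and it fell by 0.73 in siLATS1 against siLATS2, with adjusted p of 0.498 and 0.0259. With the GC trend removed the fall was tighter, at -0.61 ± 0.07 and -0.74 ± 0.07 (SE), with limma adjusted p of 0.00892 and 0.00811. Without siControl replicate 1 the difference from siControl was -0.56, just under the fold threshold, with an unadjusted p of 0.00642. In siLATS2 against siControl, OAT differed by 0.01 (95% interval -0.41 to 0.44). CYP27A1, a sterol hydroxylase, had 14.4 ± 8.32 CPM (SD, n = 3) in siControl, 25.2 ± 8.44 in siLATS1 and 20.5 ± 5.30 in siLATS2, with a log2 fold change of 0.93 (95% interval -0.20 to 2.05) in siLATS1 against siControl, which was 0.32 without siControl replicate 1, its lowest sample at 4.88 CPM.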

How the data were processed

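RNA of 9 Huh7 samples was sequenced as single-end reads of 81 bases. According to the study's methods, reads were mapped to hg19 (GRCh37) with STAR, keeping unique hits, and counted over the exons of RefSeq genes with qCount. Whether the counting used strand is not given in the sources used here, so reads of a gene and of an overlapping antisense gene cannot be told apart. The labels give a total RNA kit with ribosomal depletion, and the methods also name poly-A+ RNA. The authors deposited CPM values, 1 file per sample, with Entrez numbers. Each file also has 1 row with no number, which was left out. In every sample 100% of the values were whole multiples of 1 read within 0.1 reads, so reads could be recovered for edgeR and DESeq2 as alternatives.

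Groups and replicate numbers came from the labels. CPM were scaled by TMM factors over all genes, and log2(CPM + 1), a scale that understates changes of low genes, was fitted with limma 3.58.1 (R 4.3.3) with a mean-variance trend, 1 mean per group and all 9 samples sharing the spread. p-values were adjusted by Benjamini-Hochberg over 12901 genes, and tests are two-sided. In simulated data of 12901 genes with 200 changed, the same fit recovered 100% of changes of log2 2 and 98% of log2 1. It called 0 genes in a simulated comparison that held no change. The simulated libraries had no trend on GC content, so these shares do not give the power in the 9 libraries. The study calls its replicates biological, and nothing else says how separate the cultures were.

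Symbols matched for 20474 of 20575 numbers, and GENCODE 44 gave GRCh37 positions for 19551 genes and transcript GC content and length for 18933. The GC alternative subtracted a smooth curve (lowess, span 0.3) of each library on GC content. Alternatives were 20 planned ones and 3 added after seeing the data, and edgeR 4.0.16, DESeq2 1.42.0 and exact permutation tests (scipy 1.17.1) were also used. Named genes are the 10 members, LATS1 and, from each other list, genes past the unadjusted threshold and the 2 tested genes with the highest mean CPM. The members and lists were chosen with earlier results of these data known. LATS2 was not analysed here.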

Additional observations from a re-analysis of the deposited data

Results flagged for a closer look

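A difference between the effects of the knockdowns was tested as siLATS1 against siLATS2, and 4 named genes passed its unadjusted threshold, 0 of them a member. Of all tested genes, 1.86% passed it. Genes of the other lists were named in part for passing this threshold, so the count of named genes follows from that choice. LATS1 differed by -1.52 (limma adjusted p = 0.33), as the gene targeted in siLATS1. OAT differed by -0.73 (limma adjusted p = 0.498) and FGF19 by -0.72 (limma adjusted p = 0.757), with every siLATS1 sample under every siLATS2 sample. CD44 differed by 1.84 (limma adjusted p = 0.757, or 0.637 with no filter on low values), but it passed the filter only through the siLATS1 samples, so that they lay above the siLATS2 samples was largely fixed by the filter. Its highest sample was siLATS1 replicate 2, at 12.3 CPM. Groups of 3 samples were not tested for outliers.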

How the results depend on the processing

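The count of members past a threshold stayed at 0 in all 3 comparisons under all 23 alternatives, except that without siControl replicate 1 it was 1 (LGR5, 0.65) in siLATS1 against siControl unadjusted, so that leaving out single libraries gave 0 to 1. Replicate numbers are shared by the groups. Deviations of same-numbered samples correlated from -0.874 to 0.92, and not every sample correlated best with its own number. These deviations also carry the trend of each library on GC content, so whether the numbers pair samples cannot be told from them. With the replicate block, 400, 46 and 256 genes passed unadjusted and 0 adjusted in the 3 comparisons. The 13 genes past the adjusted threshold in siLATS1 against siControl became 8 when 10 reads or more were asked of each sample, 0 with only the 6 samples compared, 5 in edgeR, 166 in DESeq2, 167 with the GC trend removed, 230 with the GC trend removed and the replicate block, and 399 with the GC trend removed without siControl replicate 1. In siLATS1 against siLATS2 the 0 became 3 with no filter on low values, 1 with a pseudocount of 0.5, 100 in DESeq2, and 84, 107 and 184 in the 3 GC settings. The 35 genes past the unadjusted threshold in siLATS2 against siControl became 72 with a pseudocount of 0.1, 22 with only the 6 samples compared, 68 in edgeR, 70 in DESeq2 and 62 with the GC trend removed without siControl replicate 1. Leaving out single samples gave 221 (without siLATS1 replicate 3) to 730 (without siControl replicate 1) genes unadjusted and 0 (each of the siControl replicates 2 and 3, the siLATS1 replicates and siLATS2 replicate 1) to 40 (without siControl replicate 1) adjusted in siLATS1 against siControl, 11 (without siLATS2 replicate 3) to 69 (without siControl replicate 1) unadjusted in siLATS2 against siControl, and 0 to 19 (without siControl replicate 1) adjusted in siLATS1 against siLATS2. With no TMM factors, the genes higher and lower in siLATS1 against siLATS2 went from 173 and 67 to 231 and 46, and the median of all genes in siLATS1 against siControl moved to 0.10.

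Member log2 fold changes that changed sign were close to 0 in most cases, and did not pass a threshold on either side. In siLATS1 against siControl, SP5 was 0.04 with no TMM factors and 0.32 with the GC trend removed without siControl replicate 1. In siLATS2 against siControl, ZNRF3 and SP5 were -0.01 and -0.01 with only the 6 samples compared and -0.00 and -0.01 in edgeR, TCF7, RNF43, ZNRF3 and SP5 were -0.07, -0.04, -0.14 and -0.46 with the GC trend removed, with or without the block, and GLUL was -0.00 with siControl replicate 1 also left out. In siLATS1 against siLATS2, AXIN2 was 0.02 and GLUL 0.07 with no TMM factors, GLUL was 0.01 with DESeq2 size factors, 0.01 in edgeR and 0.03 in DESeq2, and AXIN2, GLUL and SP5 were 0.01, 0.01 and 0.04 in the 3 GC settings. Leaving out single samples gave, in siLATS1 against siControl, -0.02 to 0.21 for GLUL, -0.22 to 0.11 for SP5 and 0.12 to 0.65 for LGR5. In siLATS2 against siControl it gave -0.23 to 0.31 for LGR5, -0.02 to 0.40 for TCF7, -0.05 to 0.23 for RNF43, -0.04 to 0.07 for ZNRF3 and -0.16 to 0.17 for SP5. In siLATS1 against siLATS2 it gave -0.18 to 0.06 for AXIN2, -0.10 to 0.13 for GLUL, -0.09 to 0.20 for TCF7, -0.05 to 0.25 for RNF43 and -0.18 to 0.08 for SP5. The causes were not tested. NKD1, NOTUM and LEF1 did not pass the filter on low values, and their few reads limit what a comparison can show.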
